A study of Mus musculus with 9 samples.

Results

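Saa3, Lcn2, Serpina3n, Nfkbia, Ccl2, Ccl7, Cxcl16, Vcam1, Icam1 and Il6 encode acute-phase proteins and products of genes that the transcription factor NF-kB can turn on. These 10 genes, of 19938 with expression values, were chosen by name, selected on the measured values of Saa3, which peaked at 10 pM estradiol (E2), so the comparison of 10 pM E2 with vehicle and that of 100 pM E2 with 10 pM E2 are described for them without a test. Each of the 10 was measured by 1 probeset, the group of array probes that reports a gene.

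Expression was measured in primary cultures of mesenchymal cells, from which the stroma of the prostate forms, taken from the urogenital sinus of male CD-1 mouse fetuses on gestation day 17. The 3 groups were ethanol vehicle, 10 pM E2 and 100 pM E2, each with 3 Affymetrix Mouse Gene 1.0 ST arrays. Cells at their first passage spent 3 days in hormone-stripped sera with 690 pM dihydrotestosterone (DHT) and then 4 days with E2 or vehicle, and DHT stayed in every group, so no group lacked androgen. The mesenchyme had been separated from the epithelium by settling under gravity. Because no label calls the replicates separate cultures, the p-values measure the spread between these arrays, which may be technical.

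In resting cells NF-kB is held in the cytoplasm by IkB proteins. Signals such as TNF, IL-1 and bacterial products free it to enter the nucleus, where it turns on chemokine, cytokine and adhesion molecule genes together with Nfkbia, which encodes the IkB alpha that shuts it off again. IL-6 acts through gp130 and the factor STAT3, and these factors, together with C/EBP beta and delta, raise acute-phase proteins, mostly in the liver but also in stromal cells.

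Stretches of 250 bases before the annotated start of transcription were at hand for 6 of the 10 genes (RefSeq, build GRCm38.p6): Saa3, Lcn2, Serpina3n, Nfkbia, Il6 and Icam1. Ccl2, Ccl7, Cxcl16 and Vcam1 had none. The windows of Saa3 (chr7:46715677-46715926, minus strand), Lcn2 (chr2:32387740-32387989, minus strand), Nfkbia (chr12:55492648-55492897, minus strand) and Il6 (chr5:30012864-30013113, plus strand) follow, since these genes are the leading acute-phase genes, the NF-kB inhibitor and the cytokine of the group. Capitals mark matches to the NF-kB consensus or to the C/EBP pattern TTNNGNAA, searched on both strands.
Saa3: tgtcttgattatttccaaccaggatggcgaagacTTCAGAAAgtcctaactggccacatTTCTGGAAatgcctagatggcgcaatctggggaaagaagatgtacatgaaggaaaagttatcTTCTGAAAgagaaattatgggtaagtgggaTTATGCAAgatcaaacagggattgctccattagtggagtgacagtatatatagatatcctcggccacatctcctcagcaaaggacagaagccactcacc
Lcn2: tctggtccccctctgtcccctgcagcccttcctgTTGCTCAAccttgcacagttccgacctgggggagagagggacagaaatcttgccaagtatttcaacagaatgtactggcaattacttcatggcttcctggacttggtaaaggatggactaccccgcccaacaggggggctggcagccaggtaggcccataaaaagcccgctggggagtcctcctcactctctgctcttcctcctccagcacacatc
Nfkbia: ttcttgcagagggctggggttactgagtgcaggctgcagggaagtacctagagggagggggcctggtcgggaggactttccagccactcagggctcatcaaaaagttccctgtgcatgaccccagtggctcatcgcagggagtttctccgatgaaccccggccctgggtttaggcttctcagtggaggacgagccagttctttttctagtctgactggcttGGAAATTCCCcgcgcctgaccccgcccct
Il6: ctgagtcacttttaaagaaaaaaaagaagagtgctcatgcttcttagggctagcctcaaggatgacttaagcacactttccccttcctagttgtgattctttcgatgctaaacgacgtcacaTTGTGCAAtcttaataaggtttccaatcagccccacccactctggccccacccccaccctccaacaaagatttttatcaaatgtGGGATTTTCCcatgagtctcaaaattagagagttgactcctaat

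The C/EBP pattern was found at 4 places in the Saa3 window, from -216 to -209, -191 to -184, -129 to -122 and -99 to -92 relative to the start, and at 1 place in that of Lcn2, from -216 to -209. The NF-kB consensus was found in the windows of Nfkbia, from -29 to -20, and Il6, from -44 to -35, and Il6 also held the C/EBP pattern from -128 to -121. In all, 2 of the 6 windows held the NF-kB consensus, against 7.25% of 32851 windows of the same length in the table, and 5 of 6 held the C/EBP pattern, against 36.8%. TATAAA on the given strand was found in 0 of 6, against 7.59% of windows, and the full estrogen response element (GGTCA and TGACC with any 3 bases between, on both strands) in 0 of 6, against 0.064%. No match overlapped another, and a match describes letters only.

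All values below are log2 expression values, and a difference of 1 is a doubling. Saa3, an acute-phase apolipoprotein made outside the liver, was the gene whose mean was highest above vehicle at 10 pM among all 19938. It measured 5.33, 5.13 and 4.96 on the vehicle arrays, 6.76, 6.31 and 6.24 on the 10 pM arrays, and 5.27, 5.01 and 5.16 on the 100 pM arrays. The 10 pM arrays stood apart, the lowest of them 0.91 above the highest vehicle array and 0.97 above the highest 100 pM array, whereas the 100 pM and vehicle arrays overlapped. The difference of 10 pM E2 and vehicle was 1.29 ± 0.14 (SE of the fit), a 2.45-fold higher level, and that of 100 pM and 10 pM E2 was -1.29 ± 0.14. At 100 pM the mean was 5.15 ± 0.13, against 5.14 ± 0.18 in vehicle (SD, n = 3 each), and limma gave a difference of 0.01 ± 0.14 (SE, adjusted p = 0.995 over all genes), which lay between -0.08 and 0.10 with any 1 array left out. The vehicle and 100 pM values of Saa3 lay below the medians of the arrays over all genes, 6.17 to 6.20. Whether so dim a probeset could read a further fall was not tested. In such bulk RNA, fewer cells that express a gene and less of its RNA per cell cannot be told apart.

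Lcn2, lipocalin 2, binds bacterial siderophores and so keeps iron from bacteria. The vehicle arrays read 6.01, 5.93 and 5.93, the 10 pM arrays 6.34, 6.00 and 6.02, and the 100 pM arrays 5.46, 5.24 and 5.32. The first 10 pM array was the high one, the 10 pM and vehicle arrays overlapped, and all 100 pM arrays were below every other array. The mean at 100 pM was 5.34 ± 0.11, against 5.96 ± 0.05 in vehicle (SD, n = 3 each), a difference of -0.62 ± 0.09 (SE). In limma's test Lcn2 was the 1 gene of the 10 that passed between these groups (adjusted p = 0.0148), where 1.13% of all genes passed and 0.687% passed as lower. The study had itself singled out Lcn2, from these samples together with other arrays at a higher E2 dose, so this is not independent evidence of its direction. The call was lost without any 1 of the vehicle arrays, or without the second or the third 100 pM array (adjusted p between 0.0559 and 0.0853), although the difference stayed between -0.68 and -0.57 with any 1 of the 9 arrays left out. It was also lost with all probesets tested (adjusted p = 0.0624) and with only these groups in the fit (0.0527). Lcn2 had another shape than Saa3, with differences of 0.16 between 10 pM E2 and vehicle and -0.78 between 100 pM and 10 pM E2. Without the first 10 pM array the difference from vehicle was 0.05.

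Serpina3n, a secreted serine protease inhibitor of the acute-phase response, gave 8.32, 8.29 and 8.32 with vehicle, 8.53, 8.57 and 8.55 with 10 pM, and 8.09, 8.18 and 8.32 with 100 pM E2. Every 10 pM array was above all the others, by at least 0.20, and the 100 pM and vehicle arrays overlapped. The difference was 0.24 between 10 pM E2 and vehicle, and -0.35 between 100 pM and 10 pM E2. At 100 pM it was -0.11 ± 0.06 (SE) from vehicle, which did not pass limma's test (adjusted p = 0.524).

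Nfkbia read 7.95, 8.04 and 8.11 on the vehicle arrays, 8.29, 8.26 and 8.31 on the 10 pM arrays, and 7.96, 7.90 and 8.07 on the 100 pM arrays. Again the 10 pM arrays were the highest 3 of the 9 and the other groups overlapped. The differences were 0.25 for 10 pM E2 and vehicle and -0.31 for 100 pM and 10 pM E2. The 100 pM value was -0.06 ± 0.05 (SE) from vehicle (limma, adjusted p = 0.754).

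**Figure D1:**
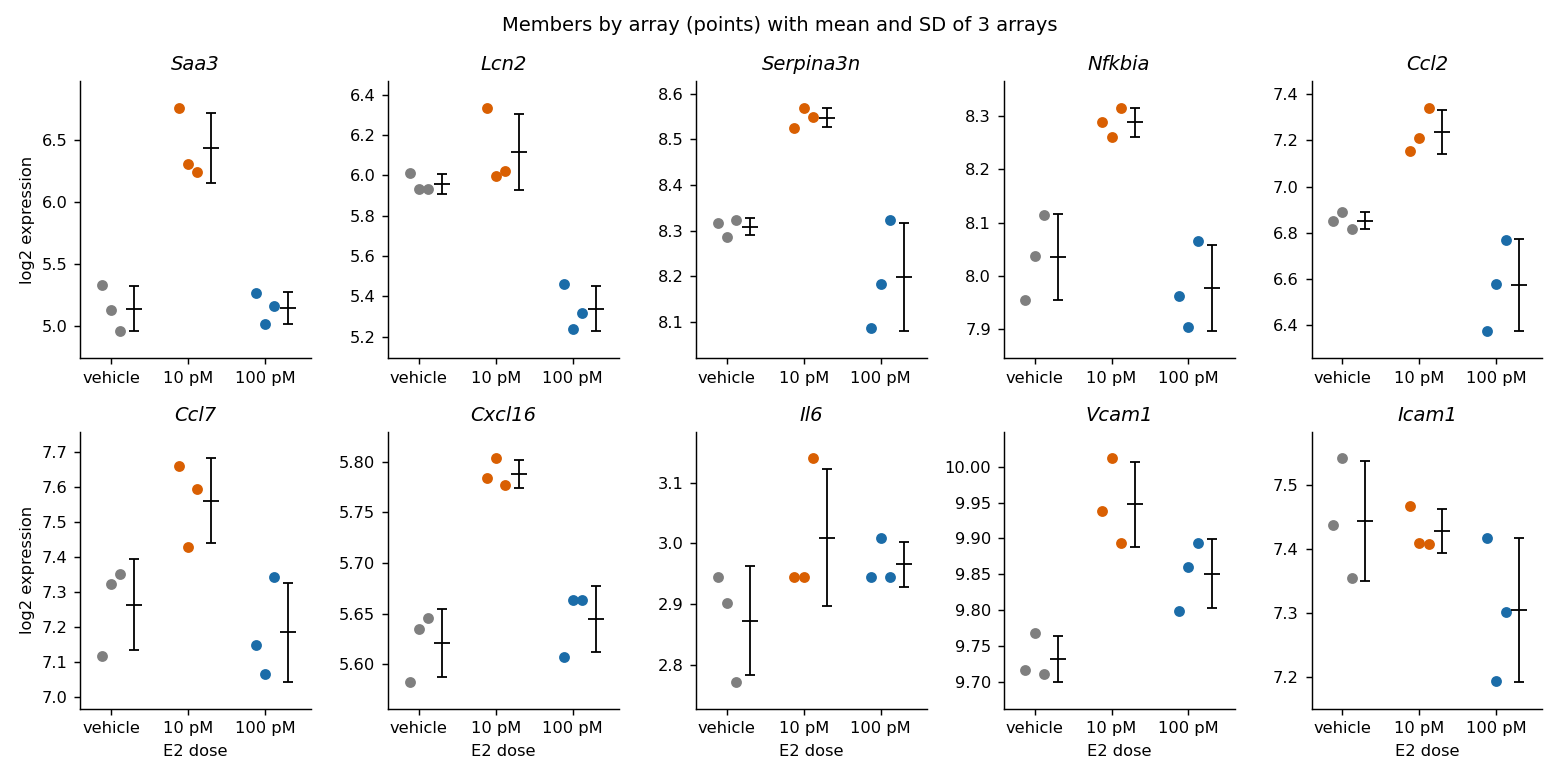
Log2 expression (y axis, its own scale in each panel) of the 10 genes in vehicle, 10 pM E2 and 100 pM E2 (x axis), with a point for each array and the mean and SD of 3 arrays in black. The 10 pM points lie above all others for Saa3, Serpina3n, Nfkbia, Ccl2, Ccl7 and Cxcl16, and the 100 pM points lie below all others for Lcn2 and Ccl2.

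The chemokines Ccl2 and Ccl7, which are neighbouring genes that both draw monocytes through the receptor CCR2, had a like order of groups. For Ccl2 the vehicle arrays were at 6.85, 6.89 and 6.82, the 10 pM arrays at 7.15, 7.21 and 7.34, and the 100 pM arrays at 6.37, 6.58 and 6.77. Its 3 groups did not overlap at all, with 10 pM at the top and 100 pM at the bottom. Ccl2 differed by 0.38 between 10 pM E2 and vehicle, the largest such difference of the 10 genes after Saa3, and by -0.66 between 100 pM and 10 pM E2. Between 100 pM E2 and vehicle the difference was -0.28 ± 0.09 (SE) and did not pass limma's test (adjusted p = 0.278), though the 100 pM arrays were all the lower ones.

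Ccl7 measured 7.12, 7.32 and 7.35 with vehicle, 7.66, 7.43 and 7.60 with 10 pM and 7.15, 7.07 and 7.34 with 100 pM E2. Its 10 pM arrays were above all others by a narrow margin of 0.07, and the 100 pM and vehicle arrays overlapped. It differed by 0.30 between 10 pM E2 and vehicle and by -0.38 between 100 pM and 10 pM E2, while 100 pM E2 and vehicle differed by -0.08 ± 0.09 (SE, limma, adjusted p = 0.808). Cxcl16, a membrane-bound chemokine and scavenger receptor for oxidized lipids, was at 5.58, 5.63 and 5.65 with vehicle, 5.78, 5.80 and 5.78 with 10 pM, and 5.61, 5.66 and 5.66 with 100 pM E2. Here too the 10 pM arrays were apart, on a smaller scale, at 0.17 above vehicle, and the difference of 100 pM and 10 pM E2 was -0.14. Cxcl16 differed by 0.02 ± 0.03 (SE) between 100 pM E2 and vehicle (limma, adjusted p = 0.854).

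Il6, the cytokine that drives the acute-phase response, was among the 30% of genes with the lowest mean signal. Its arrays were at 2.94, 2.90 and 2.77 with vehicle, 2.94, 2.94 and 3.14 with 10 pM, and 2.94, 3.01 and 2.94 with 100 pM E2. The same value recurred on 5 of the 9 arrays, the groups overlapped in each comparison, and the third 10 pM array alone was the high one. Il6 differed by 0.14 between 10 pM E2 and vehicle, by -0.04 between 100 pM and 10 pM E2, and by 0.09 ± 0.06 (SE) between 100 pM E2 and vehicle (limma, adjusted p = 0.664). Without the third 10 pM array the first of these was 0.07 and the second was 0.02.

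The adhesion molecules parted from each other. Vcam1, which binds the integrin alpha 4 beta 1 of leukocytes, gave 9.72, 9.77 and 9.71 with vehicle, 9.94, 10.01 and 9.89 with 10 pM and 9.80, 9.86 and 9.89 with 100 pM E2. All arrays of either dose were above all vehicle arrays, and those of the 2 doses overlapped at their edge. Its means lay 0.22 above vehicle at 10 pM and 0.12 ± 0.04 (SE) above it at 100 pM, the last not past limma's test (adjusted p = 0.347), and 100 pM and 10 pM E2 differed by -0.10. Icam1, which binds the beta 2 integrins, read 7.44, 7.54 and 7.35 with vehicle, 7.47, 7.41 and 7.41 with 10 pM, and 7.42, 7.19 and 7.30 with 100 pM E2. It was the 1 gene of the 10 with its highest mean in vehicle, and its groups overlapped in every comparison. The differences were -0.02 between 10 pM E2 and vehicle, -0.12 between 100 pM and 10 pM E2, and -0.14 ± 0.07 (SE) between 100 pM E2 and vehicle (limma, adjusted p = 0.487). Without the second vehicle array the first of these was 0.03.

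Counted over the 10 genes, 9 had their highest mean at 10 pM, against 32.3% of all genes, and in 6 every 10 pM array was above every vehicle and 100 pM array, against 1.19%. The difference of 10 pM E2 and vehicle was positive for 9 of 10, against 53.5% of all genes, and in 7 the arrays did not overlap and were higher, against 3.74%. Its median was 0.23, against 0.00 over all genes, and without Saa3 the other 9 had a median of 0.22. From 10 pM to 100 pM all 10 differences were negative, where 50.4% of all genes had a positive one, with a median of -0.33, against 0.00 over all genes, and in 7 the 100 pM arrays were all lower, against 6.42%. Because the genes were chosen for the peak of Saa3 and these comparisons share the 10 pM arrays, nothing is read from these shares.

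In limma's test of 10 pM E2 and vehicle none of the 19938 genes passed (0.0%), and 705 genes had an unadjusted p under 0.05. For 100 pM E2 and vehicle the 10 genes split into 4 positive and 6 negative differences, where 53.0% of all genes had a positive one, with a median of -0.07, against 0.00 over all genes. The 100 pM arrays were all lower than vehicle for Lcn2 and Ccl2, against 5.89% of genes, and all higher for Vcam1, against 6.61%.

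**Figure D2:**
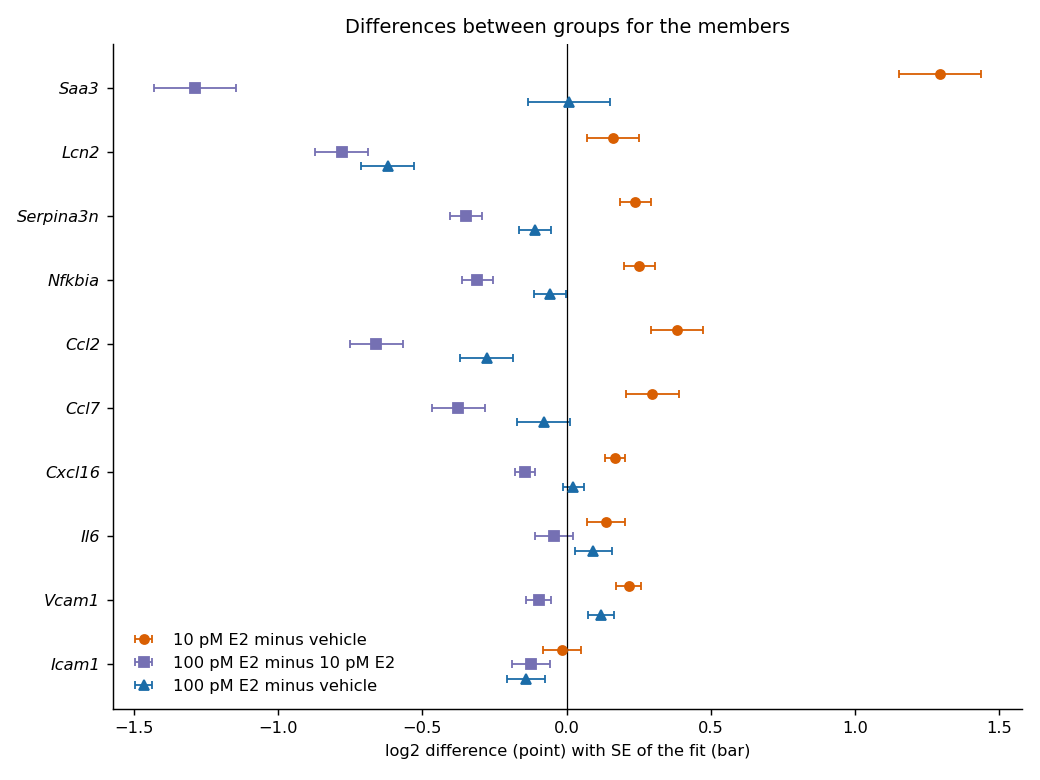
Log2 differences (x axis) with the SE of the fit for the 10 genes (y axis) in the comparisons of 10 pM E2 with vehicle, 100 pM with 10 pM E2 and 100 pM E2 with vehicle. Saa3 lies at 1.29, -1.29 and 0.01, far outside the range of the other genes in the comparison of 10 pM E2 with vehicle, and Lcn2 has the lowest difference of 100 pM E2 and vehicle, at -0.62.

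By array, and again as a description of the values that chose the genes, the medians were as follows. Set against each gene's vehicle mean, the median over the 10 genes was 0.00, 0.02 and -0.02 on the vehicle arrays, 0.24, 0.20 and 0.25 on the 10 pM arrays, and -0.05, -0.13 and 0.02 on the 100 pM arrays. Each of the 3 10 pM arrays was the highest of the 9 for 3 genes, and the second vehicle array was highest for the remaining 1, Icam1. Within the 100 pM group the third array was the highest for 5 of the 10 genes and the lowest for 0.

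A wider set of 132 genes of these pathways, the 10 excepted, was listed by role, and 120 were measured. At 10 pM 86 of the 120 differences from vehicle were positive, against 53.5% of all genes, with a median of 0.03, against 0.00. The highest mean was at 10 pM in 67 genes (55.8%), against 32.3% of all genes. In 7 (5.83%) every 10 pM array was above every vehicle and 100 pM array, against 1.19%. Every 10 pM array was higher than every vehicle array in 13 and lower in 0, against 3.74% and 2.19% of all genes. Nothing is read from these shares, since the lists were chosen with earlier results known. None of the 120 genes passed the test. From 10 pM to 100 pM 1 gene rose and 4 fell, where 0.833% of all genes passed, 0.226% as higher and 0.607% as lower. Between 100 pM E2 and vehicle 2 rose and 2 fell, where 0.446% of all genes passed as higher and 0.687% as lower.

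By role, differences of 10 pM E2 and vehicle were positive for 12 of 13 NF-kB subunits, IkB proteins and their kinases (median 0.05), 12 of 15 feedback and adaptor genes (0.02), 12 of 14 adhesion molecule and enzyme genes (0.07), 11 of 14 other chemokines (0.05) and 13 of 19 other acute-phase genes (0.03). They were positive for 6 of 11 other cytokines (0.03), 7 of 14 upstream receptors (0.00), 4 of 7 STAT3 and C/EBP genes (0.00) and 9 of 13 receptors and ligands of the 10 genes' products (0.02). Over all genes 53.5% of these differences were positive. Among NF-kB genes, Nfkb2, Relb and Nfkbiz had the smallest p in the F test over the 3 groups. Their differences of 10 pM E2 and vehicle were 0.10, 0.10 and 0.11, none past the test. Over that list the differences ran from -0.03 (Ikbkg) to 0.11, with Rela at 0.03 and Ikbkb at 0.01. Nfkbia was at 0.25, and these differences were not tested against each other. Genes picked in the same way from other lists went both ways, such as Ccl3 (0.17), Cx3cl1 (-0.10), Il1rn (0.14) and Tnf (-0.06). No list but the acute-phase, the adhesion and enzyme, and the receptor and ligand lists held a gene that passed the test in any comparison.

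**Figure D3:**
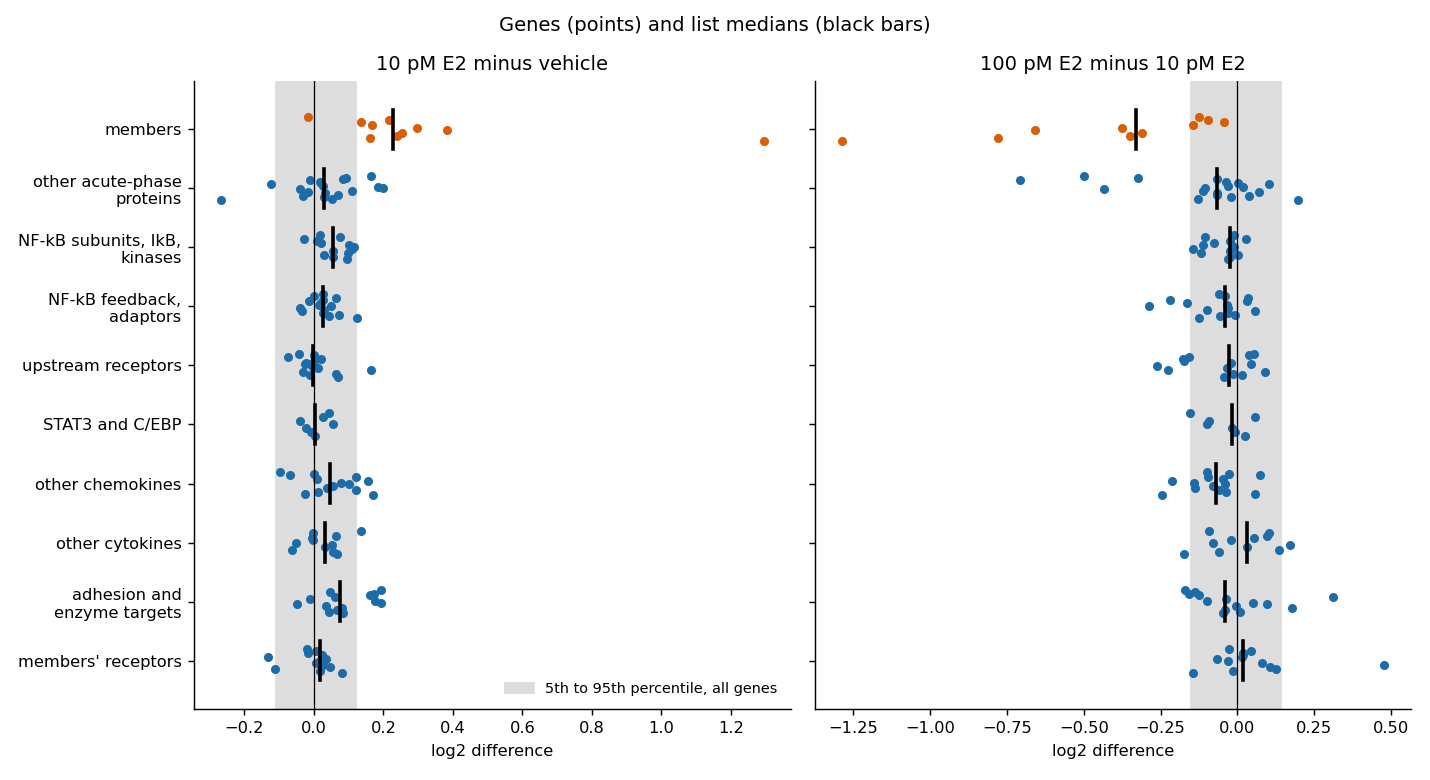
Log2 differences (x axis) of 10 pM E2 and vehicle (left) and of 100 pM and 10 pM E2 (right), with a point for each gene, a black bar for each list's median and grey for the 5th to 95th percentile of all genes. The grey band describes single genes and not medians. Saa3 is the point farthest to the right in the left panel, at 1.29, and farthest to the left in the right panel, at -1.29.

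Of the other acute-phase genes, 4 fell at 100 pM against 10 pM and 2 of them also against vehicle, and none passed the test at 10 pM against vehicle. A2m, the protease inhibitor alpha 2 macroglobulin, read 8.27, 8.27 and 8.35 with vehicle, 8.21, 8.23 and 8.43 with 10 pM and 7.63, 7.43 and 7.68 with 100 pM E2. Its 100 pM arrays were far below all others, at -0.72 ± 0.08 (SE) from vehicle (limma, adjusted p = 0.00399) and -0.71 from 10 pM E2 (adjusted p = 0.00764), and both calls stood with any 1 of the 9 arrays left out. Lbp, which hands bacterial lipopolysaccharide to CD14, had means of 8.76, 8.72 and 8.29 in vehicle, 10 pM and 100 pM, and was lower at 100 pM than with vehicle (-0.48 ± 0.07, SE, adjusted p = 0.0116) and than at 10 pM (-0.43, adjusted p = 0.0217). The call against vehicle was lost without any 1 vehicle array or the second 100 pM array, and the call against 10 pM in 7 of the 9 fits that left an array out (adjusted p up to 0.0653 and 0.107). In this drop below vehicle A2m and Lbp had the shape of Lcn2, not that of Saa3. Saa3 was dimmer than these genes, at 5.14 in vehicle, so its probeset may have had less room to fall, which was not tested.

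The metallothioneins Mt1 and Mt2, small metal-binding proteins of the acute-phase response, had means of 10.47 and 11.23 in vehicle, 10.56 and 11.39 at 10 pM, and 10.24 and 10.89 at 100 pM. Both fell between 10 pM and 100 pM, by 0.32 for Mt1 (adjusted p = 0.039 in limma) and by 0.50 for Mt2 (adjusted p = 0.0119), and neither passed between 100 pM E2 and vehicle (adjusted p = 0.127 and 0.0506). The calls were lost in 7 of 9 fits with an array left out for Mt1 and without the first or the third 10 pM array for Mt2 (adjusted p up to 0.166 and 0.0656), and that of Mt1 also with the replicate number as a block. Saa1 and Saa2, the liver paralogs of Saa3, were listed with them and are named here after their values were seen. Saa1 averaged 3.18, 2.91 and 3.11 and Saa2 3.19, 3.24 and 3.11 in vehicle, 10 pM and 100 pM, and neither passed the test in any comparison. Both were nearly as dim as Il6, at 2.87, 3.01 and 2.97, so the lack of a call tells little about them.

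A pair of genes were higher at 100 pM. Itga4, the alpha 4 integrin that is part of the receptor for VCAM1, averaged 8.39 in vehicle, 8.41 at 10 pM and 8.89 at 100 pM, and its 100 pM arrays were above vehicle by 0.50 ± 0.07 (SE, adjusted p = 0.00875 in limma) and above 10 pM by 0.48 (adjusted p = 0.0146). Without the first vehicle array the call against vehicle was lost (adjusted p = 0.0561), and without the first or the third 10 pM or the second 100 pM array the call against 10 pM (adjusted p up to 0.0763). Plau, the urokinase plasminogen activator, averaged 8.55, 8.62 and 8.93 in the same order and was higher at 100 pM than with vehicle by 0.37 ± 0.06 (SE, adjusted p = 0.0292), a call lost in 7 of 9 fits with an array left out (adjusted p up to 0.126). With only the compared groups in the fit none of the pathway genes passed, and with all probesets tested A2m, and Lbp and Itga4 against vehicle, still did.

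**Figure D4:**
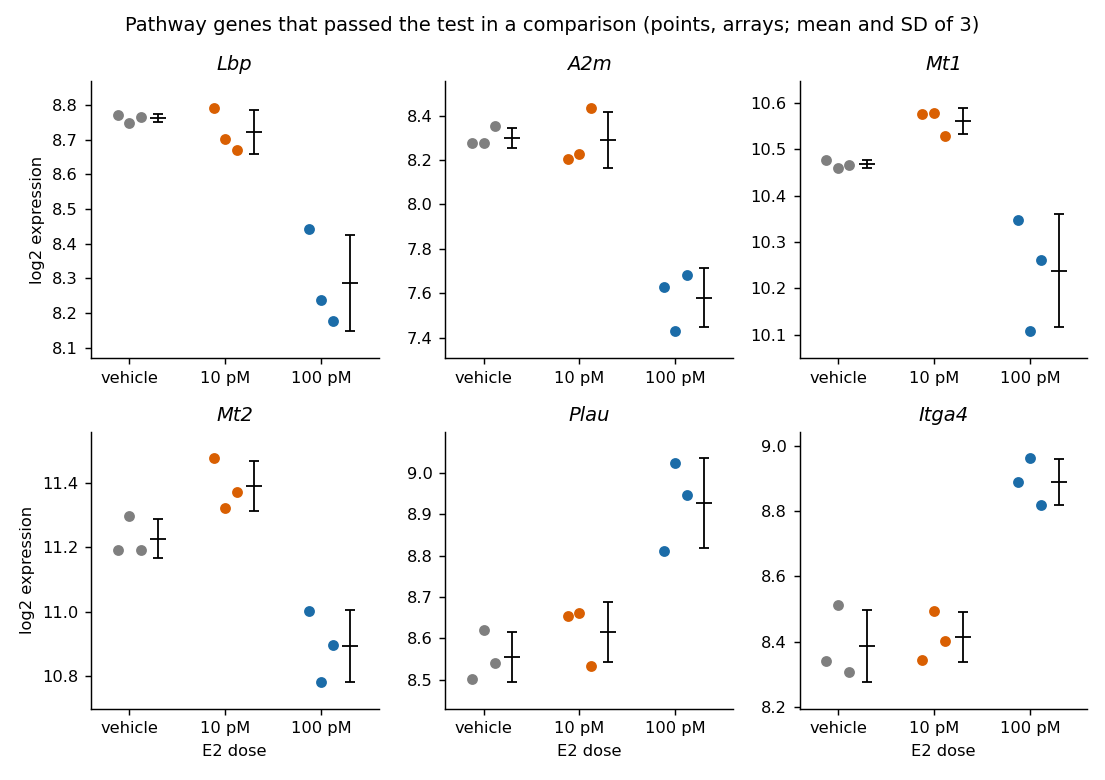
Log2 expression (y axis, its own scale in each panel) of the 6 pathway genes that passed limma's test in a comparison, in vehicle, 10 pM and 100 pM E2 (x axis), with a point for each array and the mean and SD of 3 arrays in black. The 100 pM points are the lowest for Lbp, A2m, Mt1 and Mt2 and the highest for Plau and Itga4.

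The genes most like Saa3 in their profile over the 9 arrays were sought among 1651 genes that span at least 0.5. Likeness was the root mean square difference of profiles scaled to mean 0 and SD 1, in which 0 means equal. The closest were Higd1a (0.53), a hypoxia-inducible protein of mitochondria, 2610528A11Rik (0.61), Tmem45a (0.61), Klk1b8 (0.62) and Armh4 (0.625). This scaling sets aside how bright a gene is and how far it changes. Klk1b8 was dim, at 3.86, 4.105 and 3.83 in vehicle, 10 pM and 100 pM, and its 10 pM arrays overlapped both other groups. Armh4 averaged 5.03, 5.21 and 4.96 in the same order. Higd1a averaged 7.93 in vehicle, 8.29 at 10 pM and 7.76 at 100 pM, while its other probeset averaged 7.28, 7.29 and 6.82, a difference of 0.01 between 10 pM E2 and vehicle. Of the 10 genes, Ccl7 ranked 7th in likeness to Saa3 (0.64), Ccl2 10th (0.67) and Lcn2 46th (0.80), and the other 6 spanned less than 0.5 and were not ranked.

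The arrays carried the defining markers of mesenchyme. Vim averaged 12.98, 13.01 and 13.11 and Col1a1 13.58, 13.56 and 13.56 in vehicle, 10 pM and 100 pM. The mean of 10 mesenchymal markers was 10.76 to 10.79 on the vehicle, 10.77 to 10.79 on the 10 pM and 10.71 to 10.74 on the 100 pM arrays, so all 100 pM arrays were the lowest. Of these markers Pdgfra (-0.45), Dcn (-0.25) and Col3a1 (-0.18) were lower at 100 pM than with vehicle in limma's test (adjusted p = 0.00359, 0.0421 and 0.0469), and the part of this in the 100 pM values of Lcn2 and Ccl2 was not tested. Array medians over all genes lay between 6.17 and 6.20. Because these genes can also come from leukocytes or blood vessels, marker lists of other cells are given beside them. None of these markers is at 0 on a log2 array scale. Ptprc, which marks leukocytes, averaged 5.60, 5.72 and 5.50, the neutrophil gene S100a8 4.25, 4.30 and 4.27, the endothelial gene Pecam1 5.44, 5.53 and 5.46, and the epithelial gene Epcam 5.18, 5.19 and 5.25. Other markers of these lists were above the array medians. In vehicle the macrophage genes Lyz2 and Cd68 averaged 6.70 and 6.68, and the endothelial genes Kdr, Eng and Emcn 7.87, 7.43 and 7.04. The epithelial genes Krt18, Krt8 and Krt19 averaged 7.39, 6.56 and 6.55 there. The mesenchymal marker S100a4, in turn, averaged only 5.50 in vehicle.

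Over 16 markers of macrophages and other leukocytes the mean of the list was 5.50 to 5.64 on the 10 pM arrays and 5.56 to 5.69 on the vehicle arrays. Of its 16 differences of 10 pM E2 and vehicle 5 were positive, with a median of -0.06 and none past the test. Ptprc (0.12), Cd14 (0.17) and Tyrobp (0.11) were among the 5 with their highest mean at 10 pM, the group in which Saa3 and the chemokines were high. Adgre1 (-0.17), Csf1r (-0.17), Cd68 (-0.14), C1qb (-0.18) and C1qc (-0.21) were among the 11 that were lower at 10 pM than with vehicle. The part of such cells in the 10 pM values of Saa3 and the chemokines was not tested. On the 100 pM arrays the list was at 5.42 to 5.46, below every vehicle and 10 pM array. Of its differences from vehicle 14 of 16 were negative, where 53.0% of all genes had a positive one. Only C1qb passed the test (-0.51, adjusted p = 0.0433 in limma), where 0.687% of all genes passed as lower. C1qb was dim and had the same value, 5.51, on the first vehicle array and on all 10 pM arrays, which narrows its spread. The largest fall, of Lyz2, did not pass (-0.88, adjusted p = 0.155 in limma). The shift of this list runs with the lower values of Lcn2 and Ccl2 at 100 pM, and its part in them was not tested. The mean of 9 neutrophil markers was 4.59 to 4.61 on the vehicle, 4.58 to 4.62 on the 10 pM and 4.59 to 4.65 on the 100 pM arrays. For 10 endothelial markers it was 6.17 to 6.24, 6.14 to 6.18 and 6.16 in the same order, and for 10 epithelial markers 5.86 to 5.96, 5.89 to 5.93 and 5.94 to 6.05. These lists overlapped between the 10 pM and vehicle arrays, whereas the epithelial means of the 100 pM arrays were all above those of the 10 pM arrays. That order leaned on Krt18, an epithelial keratin, which averaged 7.39, 7.25 and 7.82. It was higher at 100 pM than at 10 pM (0.57, adjusted p = 0.0428 in limma). The next largest epithelial difference between these doses was 0.14, for Krt8, and the median of the 10 was 0.015. Emcn (0.82) and Kdr (-0.98), both endothelial, passed the test in opposite directions at 100 pM against vehicle.

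**Figure D5:**
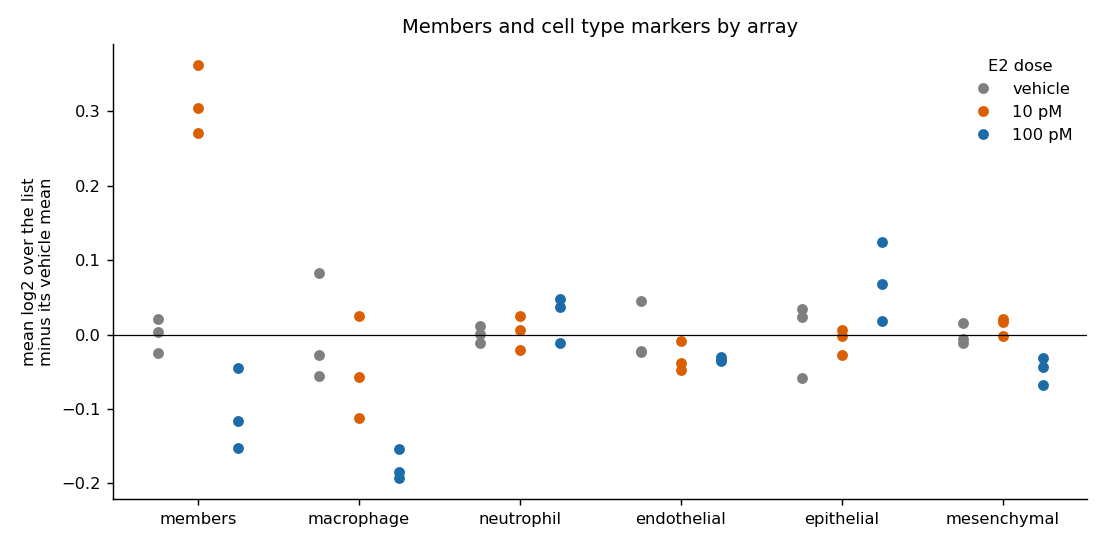
Mean log2 expression over each list on each array, minus that list's vehicle mean (y axis), for the 10 genes and 5 lists of cell type markers (x axis), with a point for each array of vehicle, 10 pM and 100 pM E2. The 10 pM points stand above the others for the 10 genes and the 100 pM points are the lowest for the macrophage and the mesenchymal lists.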

How the data were processed

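Per the labels, the authors turned the array scans into the log2 values used here, 1 per probeset and array, with GCOS and Gene Expression Console. Their versions and the normalization are not given in the sources used here. That the values are log2 was read from their range, and array medians of 6.17 to 6.20 put the 9 arrays on a like scale, not centred by gene. A dim probeset's background was not subtracted here, and no detection call was used. Of 35556 probesets, 21789 had 1 gene symbol in the platform annotation, 1621 had several and were left unnamed, and 12146 were unnamed here. Entrez identifiers of 21698 matched the current mouse gene table. For the 999 genes with more than 1 probeset the one with the highest mean was kept, which left 19938 genes.

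A model with a mean per group was fitted to all genes with limma 3.58.1 in R 4.3.3, with two-sided tests, Benjamini-Hochberg adjustment over all genes and a threshold of 0.05. The procedure was tested on simulated data. No other filter was applied, and the 3 comparisons share arrays. The number of arrays limits the precision. The members and lists were chosen with earlier results of these data known. No list was tested as a set, and the adjusted p-values given are those of single genes. Named were all 10 genes, each pathway gene past the threshold, otherwise at most 3 per list by the smallest p of the F test, and the 5 genes most like Saa3. Of the 132 pathway genes listed, 12 were not analysed here. Alternatives were median centring, quantile normalization, array weights, leaving out the dimmest 30% of genes, all probesets, averaged probesets, trend and robust, the replicate number as a block, only the compared groups, the one-way analysis of variance of the methods, an adjusted p below 0.10, and each array left out in turn. The main fit did not pair the arrays by replicate number. Promoter windows came from RefSeq and were searched with Python 3.11.15, and figures were drawn with matplotlib 3.10.9.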

Additional observations from a re-analysis of the deposited data

How the results depend on the processing

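The median difference of the 10 genes between 10 pM E2 and vehicle was 0.23 and lay between 0.21 and 0.24 under every alternative run, the 9 fits that left out an array included. Between 100 pM and 10 pM E2 it was -0.33, with -0.38 to -0.30 over the arrays left out, the lowest without the third 100 pM array. The count of the 10 genes past the test between 100 pM E2 and vehicle was 1, and became 0 with all probesets tested and with only the compared groups, and 0 to 1 over the arrays left out. No call of the 10 genes reversed, and Lcn2 lost its call in 7 fits.

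Of the pathway genes, 0 passed between 10 pM E2 and vehicle under every alternative. Between 100 pM and 10 pM E2 5 passed, 1 with all probesets, 0 with only the compared groups and 1 to 6 over the arrays left out. Between 100 pM E2 and vehicle 4 passed, 0 with only the compared groups and 1 to 7 over the arrays left out. The F test over the groups passed 4, but 7 without the dimmest 30% of genes, 7 with trend and robust, 7 at an adjusted p below 0.10, 1 with all probesets, 0 in the one-way analysis of variance and 1 to 6 over the arrays left out.

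Over all genes, 166 passed between 100 pM and 10 pM E2, 302 at an adjusted p below 0.10, 291 without the dimmest 30%, 284 with trend and robust, 30 with all probesets, 1 with only the compared groups and 30 to 178 over the arrays left out. Between 100 pM E2 and vehicle the count was 226, with 365, 343, 349, 119 and 10 in the same order of alternatives and 88 to 259 over the arrays left out. The F test passed 168 genes, 310 at an adjusted p below 0.10, 310 without the dimmest 30%, 308 with trend and robust, 65 with all probesets, 1 in the one-way analysis of variance and 85 to 176 over the arrays left out. Between 10 pM E2 and vehicle 0 genes passed, and 1 with median centring or the block. The fits of only the compared groups held fewer arrays, and the cause of these changes was not tested.

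With the replicate number as a block, the 10 genes kept medians of 0.23 and -0.33 and 1 call, and the pathway genes had 0, 4, 4 and 4 calls in the 3 comparisons and the F test, Mt1 being the call lost between 100 pM and 10 pM E2. Deviations from the group means correlated with r between -0.11 and 0.20 over the 9 pairs of arrays with the same number, against -0.19 to 0.17 over 18 other pairs. These ranges overlap, and so few pairs cannot tell whether arrays with the same number belong together.

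With 3 arrays a group, small differences are limited by precision, and the repeated values of Il6, on 5 of 9 arrays, leave little to order.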
